A study of Mus musculus with 18 samples.

Results

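The lungs of septic mice that inhaled hydrogen gas were compared with the lungs of septic mice that did not. The 6 lung libraries were chosen by their titles out of the 18 libraries of the series, with 3 from mice given hydrogen and 3 from control mice. All mice were male C57BL/6, 9 weeks old, and all had undergone cecal ligation and puncture, a surgical model in which gut bacteria leak into the abdomen and cause sepsis. The H2 mice breathed 7% hydrogen without a break from the end of surgery, together in a closed box, and the control mice were operated on in the same way and got no hydrogen. Lungs were taken at 24 h. The H2 mice shared a cage in that box, so gas, box and cage cannot be told apart. Sham-operated mice are not analysed here, so neither group shows the lung before sepsis. The labels do not state whether each library is 1 mouse, and p values measure the spread between libraries.

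In the lung, sepsis acts first on the thin barrier between air and blood. Alveolar type 1 cells cover the gas-exchange surface, type 2 cells secrete surfactant and replace type 1 cells, and a dense capillary bed lies beneath them. Cytokines and bacterial products make the endothelium display selectins and other adhesion molecules, which capture neutrophils and monocytes from the blood, while NF-kB, interferon and STAT3 signalling switch on chemokine, antiviral and acute-phase genes.

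All 6 libraries expressed the genes that define lung. The surfactant gene Sftpc measured 20779, 32835 and 33492 FPKM (sequenced fragments of a gene divided by transcript length and by library size) in control lungs 1, 2 and 3 and 28413, 30280.1 and 28343 FPKM in H2 lungs 1, 2 and 3. Values are given in this library order throughout. A change is the mean log2(FPKM + 1) of the H2 lungs minus that of the control lungs, with the standard error and n = 3 per group, and it understates the change of low genes. The files hold no counts. The depth implied by genes at 1 fragment was about 10300000 to 12910000 fragments in the controls and 13720000 to 15960000 in the H2 libraries, and thus differed with the group. The part of depth in the results was not tested. Changes also differed with transcript length, with a median of -0.12 for transcripts of 71 to 1289 bases and 0.09 for those of 6615 to 123179 bases. A correction for transcript length moved the median of no list of at least 5 tested genes by more than 0.0902. It turned the sign of the small medians of airway secretory (-0.0229 to 0.0228), chaperone (-0.0094 to 0.0512) and erythroid genes (-0.0042 to 0.0565). Control lungs 1 and 3 stood far from each other. The log2 values of control lung 3 correlated with the H2 libraries at r = 0.965 to 0.967 over 13424 genes, and with control lungs 1 and 2 at r = 0.926 and 0.950. Those of control lung 1 correlated with control lung 2 at r = 0.957 and with the H2 libraries at r = 0.908 to 0.913, the lowest of any library. Results are given with and without control lung 3, whose removal moved the counts most. Leaving out the control library that is most like the H2 libraries widens the difference between the groups by construction. Of 36 lists with at least 10 tested genes, the median moved away from 0 in 32 without control lung 3, and towards 0 in 30 without control lung 1. It kept its sign in 32 and 31 of them.

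Genes of heart muscle also differed with the group. Heart muscle extends along the pulmonary veins of the mouse and lies next to the lung at dissection. The summed FPKM of 20 cardiac and striated muscle genes, 16 of them tested, was 1002, 1148 and 1044 in control lungs and 715, 303 and 428 in H2 lungs. Of the 16 tested genes, 11 were lower in every H2 library than in every control and 1 was higher. Those shares were 68.8% and 6.25%, against 15.9% and 14.1% of all tested genes. The atrial myosin light chain gene Myl7 measured 195, 221 and 202 FPKM in control lungs and 127, 41.5 and 69.1 FPKM in H2 lungs. The myosin heavy chain gene Myh6 measured 55.8, 65.7 and 51.5 FPKM in control lungs and 27.96, 14.3 and 21.7 FPKM in H2 lungs. Without control lung 3 the median change of the list was -1.19, against -1.21 with it. Its part in the other results was not tested. Brown fat left a trace in 1 library. The brown-fat gene Ucp1 measured 74.5 FPKM in control lung 3 and at most 0.082 FPKM in the other lung libraries. The fat-cell genes Adipoq and Plin1 were 19.6 and 13.3 FPKM there, while Adipoq was 6.08, 2.23 and 3.21 FPKM in the H2 lungs. The part of this tissue in the results was not tested beyond leaving out control lung 3. Liver and gut markers were near 0, with the hepatocyte gene Alb at no more than 5.95 FPKM.

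Across 13424 genes with a mean of at least 1 FPKM in the lung, 1 gene passed an adjusted p of 0.05 (limma, Benjamini-Hochberg), which is 0.00745% of the tested genes, and it was higher in H2. No gene passed in the lower direction, although 3095 genes (23.1%) had an unadjusted p under 0.05, 1415 of them higher (10.5%) and 1680 lower (12.5%). The next lowest adjusted p was 0.1666, and all other genes named here had at least that value in this fit of the 6 libraries. Their values are therefore described, and none of them is reported as a change. In 4026 genes (30.0%) the groups did not overlap, with every H2 library above every control in 1895 (14.1%) and below every control in 2131 (15.9%). Those shares are the background for the counts of each list below. When all 18 libraries of the 3 organs were fitted together, which takes the spread from 6 groups, 818 genes passed in the lung contrast (6.09%), 444 higher (3.31%) and 374 lower (2.79%). The p values of this fit do not measure the spread between lung libraries alone. For Ackr1, whose control lungs vary widely, its standard error was 0.43, against 0.57 in the fit of the 6 lung libraries. For Camp it was 0.49 against 0.11. Without control lung 3, 3237 genes passed (24.1%), 1583 higher (11.8%) and 1654 lower (12.3%), and 724 of the 818 were among them. The median change of all tested genes was -0.0036.

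The gene that passed was Mir6516, which encodes a microRNA and is named because it passed, although small RNA genes were left out of the rule for named genes. It was listed at 0 in all 3 control lungs and measured 92.8, 118 and 125 FPKM in the H2 lungs (adjusted p = 6.42e-06, limma). It lies at chr11:117077348-117077457 on the plus strand of mm10, within the long non-coding RNA gene Snhg20, and it overlaps a predicted small RNA gene on the same strand. Reads of the 3 genes cannot be told apart in this interval. Snhg20 itself measured 14.9, 18.1 and 23.7 FPKM in control lungs and 29.4, 23.8 and 17.1 FPKM in H2 lungs, and its groups overlap. Outside the lung, Mir6516 was listed at 0 in 11 of 12 libraries and measured 48.3 FPKM in control intestine 2, so a 0 is not particular to control lungs. Poly(A) libraries do not capture mature microRNAs, which are shown here to identify the gene, with the seed in capitals (bases 2 to 8, RefSeq, GRCm38.p6).
mmu-miR-6516-5p: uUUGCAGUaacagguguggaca
mmu-miR-6516-3p: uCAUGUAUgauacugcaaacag

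**Figure D1:**
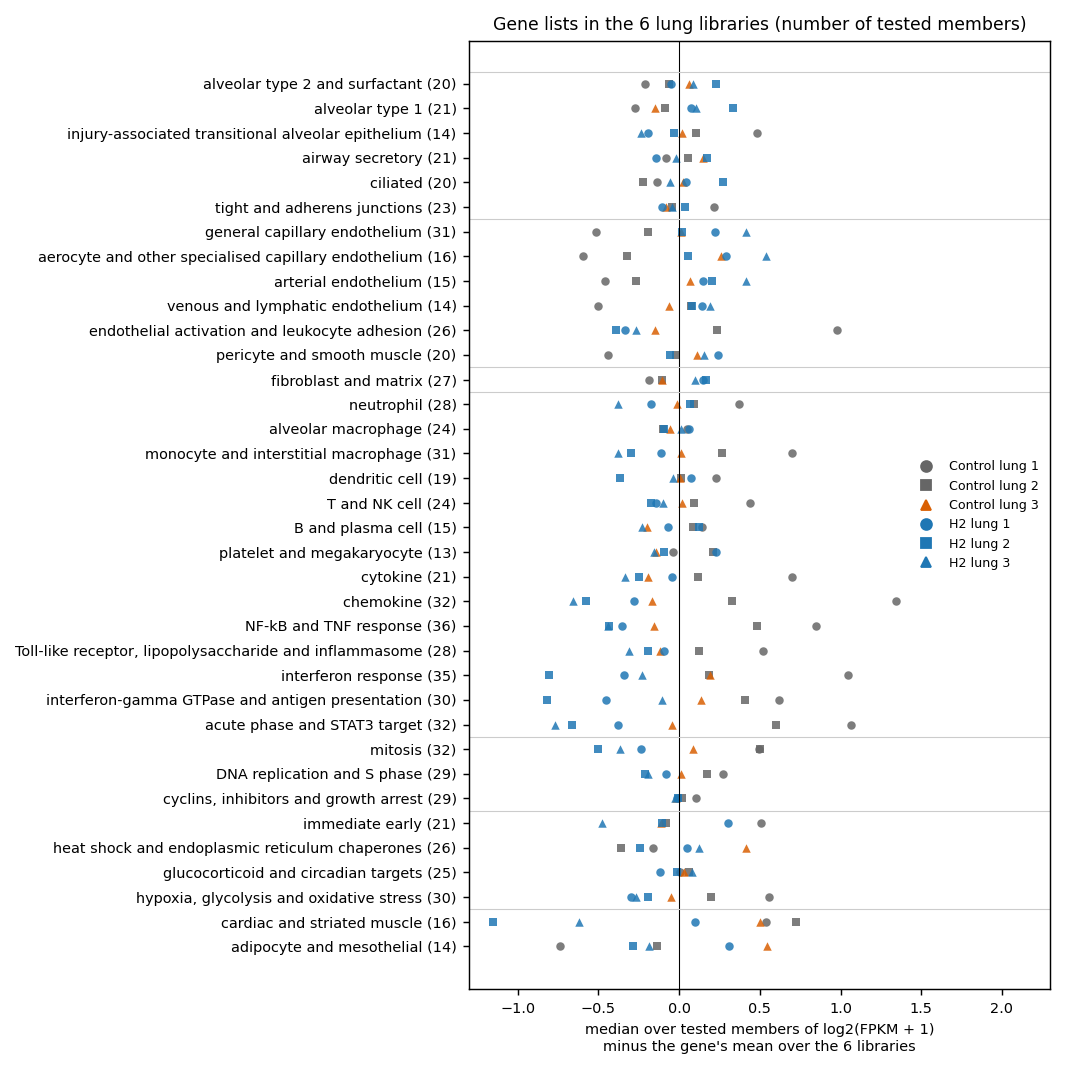
Each row is a gene list, with its number of tested members, and each symbol is a lung library (grey and orange for the controls, orange for control lung 3, blue for H2). The x axis is the median over members of log2(FPKM + 1) minus the gene's mean over the 6 libraries. Control lung 1 sits at the outer edge in many immune lists, at 1.34 for chemokines and 1.05 for the interferon response. The H2 libraries lie at or below -0.24 for mitosis, where control lungs 1 and 2 lie at 0.49 and 0.50 and control lung 3 at 0.09.

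Many alveolar type 1 genes lay higher in the H2 lungs. Of 21 tested genes, 9 lay above every control in every H2 library and 0 lay below (14.1% and 15.9% of all tested genes), with a median change of 0.35. Ager, which encodes the receptor for advanced glycation end products and marks these cells, measured 809, 898 and 893 FPKM in control lungs and 1062, 1271 and 1206 FPKM in H2 lungs (0.44 ± 0.11, adjusted p = 0.172, limma). The lowest H2 library exceeded the highest control. Akap5, a scaffold for protein kinase A, measured 10.4, 26.7 and 39.6 FPKM in control lungs and 57.9, 66.97 and 63.1 FPKM in H2 lungs (1.44 ± 0.43). The chloride channel family gene Clic5 measured 67.6, 89.4 and 146 FPKM in control lungs and 171, 171 and 217 FPKM in H2 lungs (0.94 ± 0.28). In both genes control lung 3 was the highest control and no library crossed over. The vascular growth factor Vegfa, which type 1 cells supply to the capillaries, was tight within groups at 116, 116 and 119.6 FPKM in control lungs and 162, 146 and 143 FPKM in H2 lungs (0.35 ± 0.10). Col4a3, a chain of type IV collagen in the alveolar basement membrane, measured 13.6, 13.1 and 11.4 FPKM in control lungs and 17.97, 23.5 and 24.3 FPKM in H2 lungs (0.73 ± 0.14), with adjusted p = 0.00404 in the fit of all 18 libraries. Not all type 1 genes took part. The homeobox gene Hopx measured 687, 1007 and 835 FPKM in control lungs and 864, 1027 and 846 FPKM in H2 lungs. The groups overlap for Hopx, as they do for the water channel Aqp5 (-0.18 ± 0.17) and podoplanin (Pdpn, 0.26 ± 0.18). In the fit of all 18 libraries 4 of the 21 genes passed, all higher, where 3.31% of all tested genes did. They were Col4a3, Akap5 (0.0127), Clic5 (0.031) and the semaphorin Sema3e (0.0149). Without control lung 3 the number was 6, all higher, where 11.8% of all tested genes passed. In bulk tissue, fewer cells of a type and less RNA per cell cannot be told apart, here and below.

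Collagen IV chains other than Col4a3 were among the genes with the smallest p in the whole lung. Col4a3, Col4a4 and Col4a5 together form the collagen network of the mature alveolar and glomerular basement membranes. Col4a4 measured 5.51, 6.49 and 6.24 FPKM in control lungs and 10.2, 11.9 and 13.4 FPKM in H2 lungs (0.85 ± 0.13). Col4a5 measured 5.24, 6.58 and 7.54 FPKM in control lungs and 11.6, 13.7 and 13.3 FPKM in H2 lungs (0.90 ± 0.14). In each of the 3 genes every H2 library lay above every control, and control lung 3 lay with the other controls. After the length correction the changes of Col4a3, Col4a4 and Col4a5 were 0.64, 0.74 and 0.83. Abi3bp, an extracellular matrix protein, had 3.21, 4.02 and 4.14 FPKM in control lungs and 6.91, 8.71 and 8.91 FPKM in H2 lungs (0.94 ± 0.14).

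Surfactant and type 2 genes lay in both directions. Of 20 tested genes 5 lay above (25%, against 14.1% of all tested genes) and 3 below all controls (15%, against 15.9%), and the median was 0.12. Lamp3, a protein of the lamellar bodies that store surfactant, measured 131, 147 and 197 FPKM in control lungs and 226, 237 and 222 FPKM in H2 lungs (0.55 ± 0.16, adjusted p = 0.0196 with all 18 libraries). The lamellar body lipid transporter Abca3 measured 43.3, 36.3 and 44.1 FPKM in control lungs and 47.6, 62.97 and 65.1 FPKM in H2 lungs (0.49 ± 0.15). The collectin gene Sftpd, by contrast, measured 2404, 1912 and 1836 FPKM in control lungs and 1599.7, 1596 and 1501 FPKM in H2 lungs (-0.38 ± 0.13). The surfactant proteins Sftpc (0.03 ± 0.20), Sftpb (0.25 ± 0.17) and Sftpa1 (0.13 ± 0.13) and the lineage factor Nkx2-1 (0.15 ± 0.15) overlapped between the groups. Sftpc had a change of -0.19 without control lung 1, so even its direction rests on that library. The lung chemokine Cxcl15, made by alveolar and airway epithelium, was at 346, 339.8 and 589 FPKM in control lungs and 667, 679 and 577 FPKM in H2 lungs, where control lung 3 lies inside the H2 range.

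Among 14 genes of injury-associated transitional epithelium, the intermediate state between type 2 and type 1 cells, 3 lay below all controls and 0 above. The share below was 21.4%, against 15.9% of all tested genes. The list median was -0.27, and it was -0.06 without control lung 1 and -0.41 without control lung 3. Sfn, the 14-3-3 sigma gene, measured 92.6, 49.2 and 22.2 FPKM in control lungs and 13.9, 15.7 and 16.03 FPKM in H2 lungs (-1.56 ± 0.46). The galectin Lgals3 measured 290.1, 204 and 180.2 FPKM in control lungs and 141, 174 and 129.8 FPKM in H2 lungs (-0.58 ± 0.20). Tnip3, an inhibitor of NF-kB signalling also counted in the NF-kB list, measured 2.498, 2.42 and 1.501 FPKM in control lungs and 1.01, 0.937 and 0.511 FPKM in H2 lungs (-0.78 ± 0.20). Sfn and Tnip3 passed with all 18 libraries (adjusted p = 0.0201 and 0.0344). The keratins Krt8 (-0.11 ± 0.12) and Krt18 (-0.11 ± 0.11), which mark this state, overlapped between the groups, and their sign turned after quantile normalization (0.03 in each). Krt19 lay the other way (0.48 ± 0.21), as did the matrix-associated growth factor gene Ctgf. Ctgf measured 21.3, 32.2 and 74.9 FPKM in control lungs and 94.6, 67.9 and 75.3 FPKM in H2 lungs (1.05 ± 0.42), so that control lung 3 lies inside the H2 range and control lungs 1 and 2 far below it. Its difference without control lung 3 was 1.54 (adjusted p = 0.012), and there 2 genes of the list passed higher and 4 lower. Leaving out the control nearest the H2 libraries widens the difference by construction.

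In the airways, 3 of 21 secretory genes lay above and 3 below all controls, shares near those of all tested genes. Agr2, a chaperone of mucus-producing cells, measured 9.798, 11.1 and 9.01 FPKM in control lungs and 3.56, 4.03 and 4.68 FPKM in H2 lungs (-1.11 ± 0.13, adjusted p = 0.0252 with all 18 libraries). The antibacterial lectin Reg3g measured 520.01, 490.04 and 451 FPKM in control lungs and 175, 311 and 267 FPKM in H2 lungs (-0.99 ± 0.21, 0.0455). In both, control lung 3 lay with the other controls. The mucin Muc5b measured 30.7, 18.2 and 8.04 FPKM in control lungs and 4.103, 8.91 and 7.69 FPKM in H2 lungs (-1.22 ± 0.47). It passed with all 18 libraries (0.0341), although H2 lung 2 lies above control lung 3. Cyp2f2, a detoxifying enzyme of club cells, lay above all controls, at 860.2, 1281 and 1689.9 FPKM in control lungs and 1753, 2194 and 1805 FPKM in H2 lungs (0.63 ± 0.25). The major club cell gene Scgb1a1 overlapped (-0.14 ± 0.14) and reached 0.02 after the length correction. Of 20 ciliated cell genes 4 lay above all controls and 0 below, with a median of 0.13. Those shares were 20% and 0%, against 14.1% and 15.9% of all tested genes. The 4 were Dnah5, Dnah11, Hydin and Ak7, genes of the moving cilium. The dynein heavy chain gene Dnah5 measured 3.78, 3.73 and 4.46 FPKM in control lungs and 5.02, 7.95 and 5.89 FPKM in H2 lungs (0.53 ± 0.17). Dnah5 (0.0189) and Hydin (0.0252) passed with all 18 libraries, and no ciliated gene passed without control lung 3. After the length correction Dnah5 had a change of 0.39, Hydin 0.35 and Ak7 0.43, and the list a median of 0.18. The ciliogenesis factor Foxj1 (-0.04 ± 0.15) and Sntn (-0.02 ± 0.19) overlapped.

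Tight and adherens junction genes had a median of -0.12 (0.0019 without control lung 1), with 4 of 23 above and 1 below all controls. Those shares are 17.4% and 4.35%, against 14.1% and 15.9% of all tested genes. The scaffold gene Tjp1 measured 36.2, 44.8 and 48.1 FPKM in control lungs and 53.5, 55.8 and 74.5 FPKM in H2 lungs (0.49 ± 0.17). Occludin (Ocln), a sealing protein of tight junctions, measured 15.1, 14.97 and 12.3 FPKM in control lungs and 16.8, 17.7 and 18.7 FPKM in H2 lungs (0.32 ± 0.11). Cldn5, the claudin of endothelial junctions, lay in the other direction at 763, 605 and 272 FPKM in control lungs and 253, 224 and 303 FPKM in H2 lungs (-0.95 ± 0.37). Control lung 3 fell within the H2 range for Cldn5, and without it the change was -1.39 (adjusted p = 0.00948, limma). That library was the control nearest the H2 lungs, so its removal widens the difference by construction. No junction gene passed with all 18 libraries.

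Many capillary endothelial genes lay higher in the H2 lungs. Of 31 general capillary genes 10 lay above all controls and 1 below, with a median of 0.36 (0.26 without control lung 1). Kdr, the main receptor for VEGF on endothelium, measured 21.1, 21.3 and 26.7 FPKM in control lungs and 41.6, 35.7 and 45.9 FPKM in H2 lungs (0.81 ± 0.14, adjusted p = 0.0485 with all 18 libraries). Cd300lg, a capillary surface glycoprotein and 1 of the 12 higher genes with the smallest p, measured 1.89, 2.21 and 2.41 FPKM in control lungs and 4.16, 4.45 and 4.49 FPKM in H2 lungs (0.76 ± 0.12, 0.0163). For both genes control lung 3 was closest to the H2 range but still below it. The sialomucin Emcn measured 13.9, 18.4 and 46.2 FPKM in control lungs and 85.9, 49.04 and 60.7 FPKM in H2 lungs (1.43 ± 0.43). The apelin receptor Aplnr measured 1.56, 1.51 and 2.79 FPKM in control lungs and 7.09, 3.27 and 4.54 FPKM in H2 lungs (0.99 ± 0.27). Both lay above all controls, as did the semaphorin Sema3c (1.30 ± 0.45). In other genes control lung 3 was at the H2 level. The adrenomedullin receptor gene Calcrl was at 26.8, 94.4 and 300.2 FPKM in control lungs and 355, 259 and 390.4 FPKM in H2 lungs. The endothelial transcription factor Sox17 was at 3.64, 5.87 and 14.9 FPKM in control lungs and 24.7, 12.7 and 15.7 FPKM in H2 lungs. For both genes control lung 3 lies within the H2 range and control lungs 1 and 2 below it. Nos3, the endothelial nitric oxide synthase, was the 1 capillary gene below all controls, at 10.7, 9.46 and 8.36 FPKM in control lungs and 5.69, 5.697 and 8.15 FPKM in H2 lungs (-0.49 ± 0.16). Passing with all 18 libraries were 6 genes, all higher, and without control lung 3 the counts were 12 higher and 1 lower. The pan-endothelial genes Pecam1 (0.36 ± 0.23) and Cdh5 (0.17 ± 0.22) overlapped.

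Of 16 genes of aerocytes, the large capillary cells of gas exchange, and other specialised capillaries, 5 lay above all controls and 0 below, with a median of 0.62 (0.39 without control lung 1). The endothelin receptor Ednrb measured 15.3, 18.5 and 20.2 FPKM in control lungs and 28.3, 25.8 and 34.9 FPKM in H2 lungs (0.69 ± 0.16). The VEGF co-receptor Nrp1 measured 19.3, 23.8 and 47.9 FPKM in control lungs and 58.3, 58.7 and 80.8 FPKM in H2 lungs (1.18 ± 0.33). Fibin, a secreted protein, measured 10.7, 19.1 and 64.3 FPKM in control lungs and 90.6, 86.3 and 96.8 FPKM in H2 lungs (1.89 ± 0.57). Every H2 library lay above every control in these 3 genes, with control lung 3 the highest control. The carbonic anhydrase Car4 was at 92.7, 72.7 and 154 FPKM in control lungs and 155, 129.6 and 189.6 FPKM in H2 lungs, where control lung 3 overlaps the H2 range. This list is among those where control lung 3 resembles the H2 libraries. Its median in control lung 3 was 0.72 above control lungs 1 and 2, and in the H2 libraries 0.77 above them. In the 18-library fit 1 gene passed (Fibin, 0.0163), against 10 without control lung 3.

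Arterial endothelial genes had a median of 0.54, with 6 of 15 above and 1 below all controls. The median was 0.37 without control lung 1 and 0.37 without control lung 2. The elastic fibre protein Fbln5 measured 1.87, 3.13 and 5.48 FPKM in control lungs and 6.73, 7.54 and 8.78 FPKM in H2 lungs (1.02 ± 0.29). The gap junction gene Gja5 measured 2.69, 4.06 and 6.26 FPKM in control lungs and 6.41, 9.73 and 9.196 FPKM in H2 lungs (0.86 ± 0.27). The Notch ligand Jag2 measured 2.54, 3.82 and 7.47 FPKM in control lungs and 8.65, 7.58 and 9.58 FPKM in H2 lungs (0.87 ± 0.30). These 3 passed with all 18 libraries at adjusted p = 0.0257, 0.0371 and 0.0405, as did the Notch target Hey1 (0.0283) and the kinase Bmx (0.0328). The gene below all controls was Plac8, which monocytes also express and whose values stand with the monocyte genes. Of 14 venous and lymphatic genes 2 lay above (14.3%) and 3 below all controls (21.4%), against 14.1% and 15.9% of all tested genes. The median of these 14 was 0.36 (0.16 without control lung 1 and 0.45 without control lung 3, where 4 genes passed higher and 4 lower). Vwf, the von Willebrand factor of endothelial storage granules, measured 22.4, 29.9 and 38.6 FPKM in control lungs and 47.6, 54.8 and 71.7 FPKM in H2 lungs (0.93 ± 0.23, 0.0168 with all 18 libraries). Ackr1, the chemokine-binding receptor of venules, measured 39.1, 19.6 and 6.41 FPKM in control lungs and 1.79, 0.878 and 0.864 FPKM in H2 lungs (-3.10 ± 0.57, 0.00318). The scavenging chemokine receptor Ackr3 measured 194, 173 and 38.05 FPKM in control lungs and 23.8, 18.4 and 25.3 FPKM in H2 lungs (-2.24 ± 0.59, 0.0173). Lyve1, the hyaluronan receptor of lymphatic vessels and some macrophages, measured 1089, 579.8 and 118 FPKM in control lungs and 71.5, 77.5 and 91.8 FPKM in H2 lungs (-2.38 ± 0.74, 0.0328). In these 3 genes control lungs 1 and 2 stood far above control lung 3, which in turn stood above every H2 library. Ccl21a, the lymphatic chemokine, was with Vwf the other gene above all controls (0.67 ± 0.26). Ephb4 (0.60 ± 0.30), a receptor of veins, overlapped.

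Many adhesion and activation genes of endothelium lay low in the H2 lungs. Of 26 tested genes 13 lay below all controls and 1 above, with a median of -0.66 (-0.44 without control lung 1). P-selectin (Selp), which captures rolling leukocytes, measured 41.4, 20.9 and 5.77 FPKM in control lungs and 1.87, 2.204 and 2.38 FPKM in H2 lungs (-2.55 ± 0.60, adjusted p = 0.0163 with all 18 libraries). E-selectin (Sele), which acts with it, measured 11.5, 7.62 and 1.51 FPKM in control lungs and 1.21, 0.638 and 0.629 FPKM in H2 lungs (-1.84 ± 0.56, 0.0282). The proteoglycan-cleaving protease Adamts4 measured 72.995, 28.7 and 5.01 FPKM in control lungs and 2.12, 2.18 and 3.74 FPKM in H2 lungs (-2.71 ± 0.83, 0.0421). In these 3 genes control lung 1 was highest, control lung 3 was the lowest control, and every H2 library lay below it. The sphingosine kinase Sphk1 measured 124, 131 and 60.5 FPKM in control lungs and 43.97, 36.8 and 43.01 FPKM in H2 lungs (-1.25 ± 0.29), with control lung 2 the highest. Angpt1, the ligand that stabilises vessels through Tek, was the 1 gene above all controls, at 4.38, 8.71 and 19.99 FPKM in control lungs and 32.01, 32.7 and 35.2 FPKM in H2 lungs (1.73 ± 0.45, 0.00665). Its antagonist Angpt2 overlapped (0.04 ± 0.30), as did the adhesion molecules Icam1 (429, 233 and 171 FPKM in control lungs and 169, 176 and 178 FPKM in H2 lungs) and Vcam1 (-0.08 ± 0.27). Of the coagulation genes in this list, tissue factor (F3), which starts clotting, was at 103, 73.8 and 64.04 FPKM in control lungs and 50.99, 57.7 and 54.4 FPKM in H2 lungs. It lay below all controls. Thrombomodulin (Thbd), the anticoagulant receptor of resting endothelium, was 70.6, 97.2 and 176 FPKM in control lungs and 147, 139 and 243 FPKM in H2 lungs and overlapped. In the fit of 18 libraries 4 genes passed lower and 1 higher, and without control lung 3 the counts were 14 lower and 3 higher. The median in control lung 3 was -0.88 relative to control lungs 1 and 2, near the -0.997 of the H2 libraries.

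Genes of the cells around vessels and of the matrix lay more often above the controls than below. Of 20 pericyte and smooth muscle genes 6 lay above and 1 below all controls, with a median of 0.22 (0.11 without control lung 1). The integrin gene Itga8 measured 2.83, 4.71 and 11.1 FPKM in control lungs and 15.8, 17.7 and 23.4 FPKM in H2 lungs (1.62 ± 0.40, adjusted p = 0.0062 with all 18 libraries). The calcium channel Trpc6 measured 2.63, 4.45 and 5.96 FPKM in control lungs and 11.4, 7.64 and 9.75 FPKM in H2 lungs (1.02 ± 0.26, 0.00629). The contractile genes Acta2 (0.15 ± 0.20), Myh11 (0.02 ± 0.18) and Tagln (-0.01 ± 0.22) and the pericyte receptor Pdgfrb (0.06 ± 0.16) overlapped, and Pdgfrb reached -0.03 without control lung 3. Of 27 fibroblast and matrix genes 13 lay above and 2 below, with a median of 0.36. The elastin gene Eln measured 60.7, 57.2 and 78.005 FPKM in control lungs and 135, 95.97 and 93.4 FPKM in H2 lungs (0.71 ± 0.19). Col1a1, the main fibrillar collagen chain, measured 12.7, 7.46 and 15.1 FPKM in control lungs and 26.3, 17.7 and 20.1 FPKM in H2 lungs (0.84 ± 0.26). Col6a3 measured 0.792, 0.734 and 2.42 FPKM in control lungs and 4.41, 4.798 and 4.18 FPKM in H2 lungs (1.31 ± 0.27, 0.0163 with all 18 libraries). Control lung 3 was the highest control in these 3 genes and stayed below every H2 library. The morphogen Fgf10, which sustains alveolar epithelium, measured 1.12, 1.64 and 3.28 FPKM in control lungs and 3.59, 3.75 and 3.79 FPKM in H2 lungs (0.71 ± 0.25, 0.0323). The protease inhibitor Timp1 lay below all controls, at 639, 208 and 121 FPKM in control lungs and 94.1, 71.1 and 79.3 FPKM in H2 lungs (-1.63 ± 0.56). The membrane protease Mmp14 also lay below them (-0.87 ± 0.35). For the matrix list control lung 3 lay with the controls, its median being -0.17 relative to control lungs 1 and 2 against 0.31 for H2. Passing with all 18 libraries were 6 genes, all higher.

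**Figure D2:**
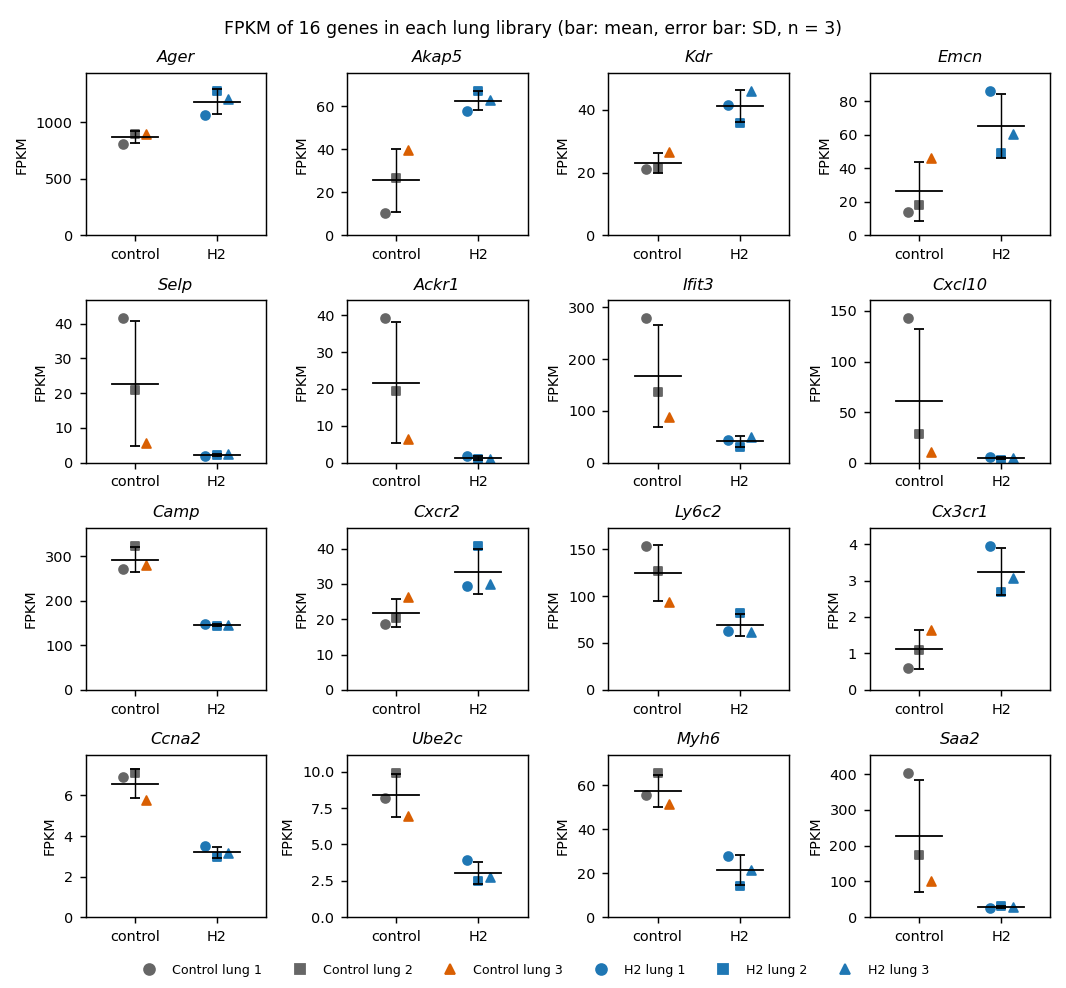
Panels show the FPKM of 16 genes, with each symbol a lung library, the line the mean and the error bar the SD (n = 3). Control lung 3 is orange. The 16 genes were picked by hand, and in each panel no H2 library overlaps the controls, which holds for 30.0% of all tested genes. Genes of the same lists that overlap, such as Hopx, Pecam1 and S100a8, are not shown. For Selp, Ackr1, Ifit3, Cxcl10 and Saa2 the control SD reflects a run from control lung 1 down to control lung 3.

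Neutrophil genes lay in both directions. Neutrophils fill their granules in the bone marrow in a fixed order, with azurophil proteases first, then cathelicidin and lactoferrin, then gelatinase, and they acquire Cxcr2 at the end. The azurophil elastase gene Elane measured 6.49, 4.79 and 1.25 FPKM in control lungs and 0, 0.313 and 0.083 FPKM in H2 lungs (-2.03 ± 0.43). Proteinase 3 (Prtn3) measured 13.5, 13.7 and 6.62 FPKM in control lungs and 2.49, 3.87 and 3.16 FPKM in H2 lungs (-1.51 ± 0.28). Both passed with all 18 libraries (adjusted p = 0.00318 and 0.00377), and so did cathepsin G (Ctsg, 0.0249), while myeloperoxidase (Mpo) was too low to be tested. Camp, the cathelicidin gene, measured 271, 323 and 281 FPKM in control lungs and 149, 143 and 146 FPKM in H2 lungs (-0.99 ± 0.11), which is the second smallest p among lower genes (adjusted p = 0.167, limma). Every control library was at least 271 FPKM and every H2 library at most 149 FPKM, and control lung 3 did not stand out. The 3 genes above all controls were Cxcr2, Mmp9 and Padi4. The chemokine receptor Cxcr2 measured 18.7, 20.3 and 26.2 FPKM in control lungs and 29.5, 40.8 and 29.9 FPKM in H2 lungs (0.60 ± 0.18). Gelatinase (Mmp9) measured 40.96, 29.6 and 44.7 FPKM in control lungs and 48.6, 72.97 and 59.6 FPKM in H2 lungs (0.64 ± 0.21). Padi4, a histone-modifying enzyme needed for extracellular traps, measured 4.59, 3.605 and 6.29 FPKM in control lungs and 6.66, 10.04 and 7.48 FPKM in H2 lungs (0.64 ± 0.21). The abundant calprotectin gene S100a8 measured 8986, 11322 and 15149 FPKM in control lungs and 11709.8, 16892 and 9485 FPKM in H2 lungs and overlapped, as did its partner S100a9 (0.04 ± 0.21). In total 7 of 28 neutrophil genes lay below and 3 above all controls, with a median of -0.33, and the rest overlapped. Those shares were 25% and 10.7%, against 15.9% and 14.1% of all tested genes. Not all granule genes of the list are given here, and lactoferrin (Ltf) is among those left out. Whether the granule genes follow the order of filling was not tested. With all 18 libraries 3 passed, all lower, and without control lung 3 the counts were 12 lower and 4 higher. In that last fit 12.3% of all tested genes passed lower and 11.8% higher.

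Monocyte genes lay mostly low in the H2 lungs. Of 31 genes of monocytes and interstitial macrophages 16 lay below and 1 above all controls, with a median of -0.43. Ly6c2, a surface marker of classical inflammatory monocytes, measured 154, 126 and 94.02 FPKM in control lungs and 62.4, 82.3 and 61.4 FPKM in H2 lungs (-0.83 ± 0.21, adjusted p = 0.0461 with all 18 libraries). Plac8, which the same cells express, measured 587, 529.6 and 386 FPKM in control lungs and 187, 167 and 197 FPKM in H2 lungs (-1.42 ± 0.17, 0.0222). Their homing receptor Ccr2 measured 22.8, 25.2 and 24.5 FPKM in control lungs and 20.4, 19.8 and 13.9 FPKM in H2 lungs (-0.42 ± 0.16). All 3 lay below all controls. The 1 gene above all controls was Cx3cr1, the fractalkine receptor of patrolling monocytes, at 0.59, 1.099 and 1.65 FPKM in control lungs and 3.96, 2.699 and 3.06 FPKM in H2 lungs (1.02 ± 0.22, 0.00629). Other genes of patrolling monocytes did not share its direction, with Treml4 (-1.31 ± 0.45) and Cd300e (-1.01 ± 0.44) lower. Arg1, the arginase of alternatively activated macrophages, measured 67.6, 28.02 and 10.9 FPKM in control lungs and 3.92, 3.68 and 3.98 FPKM in H2 lungs (-2.56 ± 0.57, 0.0115). The activating Fc receptor Fcgr4 measured 145, 127 and 78.4 FPKM in control lungs and 62.6, 41.9 and 57.9 FPKM in H2 lungs (-1.07 ± 0.26, 0.0314). Integrin alpha M (Itgam), shared by neutrophils and monocytes, was 196, 83.4 and 55.3 FPKM in control lungs and 44.003, 54.97 and 43.7 FPKM in H2 lungs and did not overlap. The complement genes of tissue macrophages, C1qa (-0.04 ± 0.18), C1qb (-0.26 ± 0.16) and C1qc (-0.13 ± 0.16), overlapped. In the 18-library fit 9 genes passed lower and 1 higher.

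Of 24 alveolar macrophage genes 2 lay above and 2 below all controls, smaller shares than among all tested genes, and the median was 0.07. Marco (-0.12 ± 0.31), Siglecf (0.32 ± 0.21), Chil3 (0.04 ± 0.13) and Pparg (-0.05 ± 0.19) overlapped, and Marco reached 0.22 without control lung 1. The 2 genes above were Mertk and the iron carrier Trf. Mertk, a receptor for engulfing dead cells, measured 7.82, 8.34 and 11.4 FPKM in control lungs and 16.3, 15.3 and 19.1 FPKM in H2 lungs (0.82 ± 0.16, adjusted p = 0.0467 with all 18 libraries). The lipoprotein lipase Lpl was below all controls (254, 246 and 199 FPKM in control lungs and 143, 165 and 148 FPKM in H2 lungs). The fatty acid carrier Fabp4 measured 116, 155 and 798 FPKM in control lungs and 177, 80.7 and 101 FPKM in H2 lungs, with its highest value in the library that carries brown-fat genes.

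Dendritic cell genes lay in both directions. Clec9a, the dead-cell receptor of conventional type 1 dendritic cells, measured 1.13, 2.83 and 13.3 FPKM in control lungs and 20.8, 14.7 and 16.8 FPKM in H2 lungs (1.90 ± 0.64). Zbtb46, a transcription factor of conventional dendritic cells, measured 3.56, 5.34 and 7.21 FPKM in control lungs and 8.98, 8.12 and 10.4 FPKM in H2 lungs (0.71 ± 0.22). Both passed with all 18 libraries (adjusted p = 0.0232 and 0.031). The migratory dendritic cell chemokine Ccl17 lay the other way, at 151, 82.8 and 52.9 FPKM in control lungs and 30.2, 23.5 and 26.8 FPKM in H2 lungs (-1.67 ± 0.35, 0.0127). The transcription factor Irf8 also lay below all controls (-0.86 ± 0.25). MHC class II genes H2-Aa (-0.28 ± 0.18) and H2-Ab1 (-0.28 ± 0.18) overlapped. The list as a whole had 2 of 19 above, 4 below and a median of -0.28 (-0.16 without control lung 1). Its shares were 10.5% above and 21.1% below, against 14.1% and 15.9% of all tested genes. T and NK cell genes were low in all libraries, and 24 of 38 symbols passed the filter. Of these 3 lay below (12.5%) and 2 above all controls (8.33%), against 15.9% and 14.1% of all tested genes. Gzmb, a protease of killer cell granules, was at 18.6, 13.02 and 10.8 FPKM in control lungs and 5.42, 6.77 and 9.42 FPKM in H2 lungs (-0.88 ± 0.24). The NK receptor Ncr1 was at 0.904, 0.943 and 1.66 FPKM in control lungs and 1.98, 1.91 and 2.804 FPKM in H2 lungs (0.58 ± 0.19). Of 15 B and plasma cell genes 2 lay each way (13.3% each), near the 14.1% and 15.9% of all tested genes. Xbp1, the secretory cell factor that many cell types use, was 314, 303 and 172 FPKM in control lungs and 126, 128 and 126 FPKM in H2 lungs (-0.995 ± 0.23). The B cell receptor gene Cd79a (-0.16 ± 0.22) overlapped. Platelet genes had a median of 0.0026 over 13 genes and erythroid genes of -0.0042 over 7, with 0 outside the control range in each. Of 15 mast cell, basophil and eosinophil genes only Gata2 passed the filter, a factor that endothelium also expresses.

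Of 21 tested cytokine genes 6 lay below all controls and 0 above, and the other 15 overlapped. The median was -0.44, and -0.20 without control lung 1. Relative to control lungs 1 and 2, the list median was lower in control lung 3 (-0.59) than in the H2 libraries (-0.51). Il6 measured 104, 27.6 and 4.48 FPKM in control lungs and 2.68, 2.09 and 1.87 FPKM in H2 lungs (-2.99 ± 0.95, adjusted p = 0.174, limma, and 0.112 with all 18 libraries). The granulocyte growth factor Csf3 measured 66.8, 20.1 and 1.35 FPKM in control lungs and 0.34, 0.482 and 0.609 FPKM in H2 lungs (-3.35 ± 1.10). The anti-inflammatory Il10 measured 10.2, 5.704 and 1.42 FPKM in control lungs and 0.716, 0.405 and 0.214 FPKM in H2 lungs (-1.98 ± 0.52, 0.0178). Control lung 1 was the highest library in all 3 genes and control lung 3 the lowest control. Il1b was at 303, 215 and 39.8 FPKM in control lungs and 95.3, 33.1 and 23.96 FPKM in H2 lungs. Tnf was at 20.8, 10.02 and 4.47 FPKM in control lungs and 6.35, 5.85 and 2.7 FPKM in H2 lungs. For both, control lung 3 falls inside the H2 range. Without control lung 3 the difference in Il6 was -4.10 (adjusted p = 0.00948), in Il1b -2.56 (0.0277) and in Tnf -1.44 (0.0477). Control lung 3 was the control nearest the H2 libraries in these genes, so its removal widens the differences by construction. Csf2 (0.12 ± 0.18), Il33 (-0.08 ± 0.19) and Tslp (-0.01 ± 0.25), cytokines that epithelium can release, overlapped.

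Among 32 chemokine ligands and receptors 15 lay below all controls and 2 above, with a median of -1.18 (-0.67 without control lung 1). The interferon-induced T cell attractant Cxcl10 measured 143, 28.5 and 10.4 FPKM in control lungs and 5.36, 2.93 and 4.93 FPKM in H2 lungs (-2.78 ± 0.84, adjusted p = 0.172, limma, and 0.0264 with all 18 libraries). Its relative Cxcl9 measured 4.04, 1.65 and 3.88 FPKM in control lungs and 0.486, 0.433 and 0.761 FPKM in H2 lungs (-1.37 ± 0.27). Both lay below all controls, Cxcl10 with a wide spread among them. Ccl3, which attracts monocytes, was at 152, 51.2 and 15.7 FPKM in control lungs and 11.3, 8.51 and 5.75 FPKM in H2 lungs (-2.47 ± 0.74). The neutrophil attractant Cxcl1 was at 176, 114 and 18.1 FPKM in control lungs and 20.9, 15.6 and 12.4 FPKM in H2 lungs. Cxcl2, which acts like it, was at 208, 79.4 and 10.01 FPKM in control lungs and 14.8, 8.33 and 3.96 FPKM in H2 lungs. For Cxcl1 and Cxcl2 control lung 3 falls inside the H2 range, and control lungs 1 and 2 lie far above it. The monocyte attractant Ccl2 overlapped in the same way, at 195, 75.2 and 37.6 FPKM in control lungs and 46.5, 23.6 and 25.997 FPKM in H2 lungs. Cxcl3 and Cxcl5, also neutrophil attractants, lay below all controls (-3.21 ± 1.09 and -1.48 ± 0.61). The 2 genes above were Cxcl12, which retains leukocytes and is made by vessels and stroma (35.9, 22.5 and 44.1 FPKM in control lungs and 58.2, 50.5 and 65.4 FPKM in H2 lungs), and Ccl21a. In the fit of 18 libraries 5 passed lower and 1 higher (Cxcl15, 0.0311), and without control lung 3 the counts were 18 lower and 2 higher.

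The NF-kB and TNF response list had 22 of 36 genes below all controls and 0 above. Its median was -0.76 (-0.52 without control lung 1). Nfkbia, the inhibitor that NF-kB induces against itself, measured 605, 428 and 304 FPKM in control lungs and 222, 287 and 252 FPKM in H2 lungs (-0.76 ± 0.25). The transcription factor Cebpb measured 166, 134 and 93.8 FPKM in control lungs and 71.4, 67.1 and 61.9 FPKM in H2 lungs (-0.93 ± 0.21). Its relative Cebpd measured 269.6, 253 and 150.4 FPKM in control lungs and 136, 88.5 and 103 FPKM in H2 lungs (-1.01 ± 0.26). In all 3 genes every H2 library lay below control lung 3, the lowest control. The atypical inhibitor Bcl3 measured 80.4, 64.1 and 32.6 FPKM in control lungs and 24.9, 25.1 and 27.2 FPKM in H2 lungs (-1.07 ± 0.31). Mitochondrial superoxide dismutase (Sod2) had 197, 101 and 62.1 FPKM in control lungs and 45.7, 41.6 and 40.1 FPKM in H2 lungs (-1.32 ± 0.38). The NF-kB subunit Rela was at 57.02, 43.8 and 34.7 FPKM in control lungs and 33.8, 35.5 and 37.4 FPKM in H2 lungs and overlapped, as did the subunit Nfkb1 (-0.30 ± 0.18). With all 18 libraries 8 genes passed, all lower, among them Cebpb (0.0328), Cebpd (0.0185), Bcl3 (0.0193) and Sod2 (0.0178). Without control lung 3 there were 25 lower and 1 higher (Traf1, 0.33 ± 0.18 over all 6 libraries).

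Of 28 Toll-like receptor, lipopolysaccharide and inflammasome genes 11 lay below and 1 above all controls, with a median of -0.29. The inflammasome adaptor Pycard measured 39.5, 27.7 and 23.9 FPKM in control lungs and 13.1, 13.7 and 9.01 FPKM in H2 lungs (-1.27 ± 0.23, adjusted p = 0.0088 with all 18 libraries). Casp4, the caspase that binds lipopolysaccharide in the cytosol, measured 56.3, 53.1 and 31.4 FPKM in control lungs and 26.8, 23.5 and 15.2 FPKM in H2 lungs (-1.06 ± 0.28, 0.0378). The shared adaptor Myd88 measured 135, 95.2 and 57.9 FPKM in control lungs and 47.6, 42.7 and 50.9 FPKM in H2 lungs (-0.93 ± 0.29, 0.0299). The lipopolysaccharide co-receptor Cd14 was 348, 146 and 56.3 FPKM in control lungs and 55.2, 49.6 and 38.4 FPKM in H2 lungs, and lay below all controls, while Tlr4 itself (-0.26 ± 0.16) and Tlr2 (-0.33 ± 0.26) overlapped. Tlr5, which recognises bacterial flagellin, was the 1 gene above all controls, at 0.612, 1.07 and 1.59 FPKM in control lungs and 2.56, 2.64 and 2.33 FPKM in H2 lungs (0.77 ± 0.19, 0.0163).

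The acute-phase and STAT3 target list had the lowest median of the lists, -1.23, with 21 of 32 genes below all controls and 0 above. Hpx, the heme-binding plasma protein, had the smallest p of all lower genes: 24.8, 15.2 and 18.4 FPKM in control lungs and 4.89, 4.11 and 3.14 FPKM in H2 lungs (-2.01 ± 0.21, adjusted p = 0.167, limma, and 0.00377 with all 18 libraries). The serum amyloid gene Saa3 measured 22839, 8211 and 10283 FPKM in control lungs and 6174, 3645 and 3828 FPKM in H2 lungs (-1.49 ± 0.40). Saa2 measured 404, 175 and 102 FPKM in control lungs and 24.6, 30.2 and 28.9 FPKM in H2 lungs (-2.75 ± 0.45), and it is a near-identical copy of Saa1 (-1.59 ± 0.43), so that reads may be split between them. Every H2 library lay below every control in the 3 serum amyloid genes. The zinc-binding metallothionein Mt1 measured 3727, 3017 and 903 FPKM in control lungs and 339.9, 493 and 345 FPKM in H2 lungs (-2.48 ± 0.51), and its neighbour Mt2 differed by -2.70 ± 0.53. The zinc importer Slc39a14 measured 75.5, 52.02 and 19.7 FPKM in control lungs and 10.2, 12.97 and 17.3 FPKM in H2 lungs (-1.63 ± 0.47). The STAT3 feedback inhibitor Socs3 measured 301, 281 and 69.4 FPKM in control lungs and 60.9, 60.5 and 52.3 FPKM in H2 lungs (-1.63 ± 0.54). In all of these the H2 libraries lay below all controls, and control lung 3 was the lowest control in Saa2, Mt1, Slc39a14 and Socs3, and control lung 2 in Hpx and Saa3. Lcn2, which withholds iron from bacteria, was at 12732, 5218 and 4257 FPKM in control lungs and 3557, 2854 and 2569 FPKM in H2 lungs (-1.15 ± 0.40). Stat3 itself was 144, 119 and 68.1 FPKM in control lungs and 48.5, 60.8 and 68.7 FPKM in H2 lungs, where control lung 3 lies just inside the H2 range. The complement gene C3 overlapped (-0.07 ± 0.10), and so did the receptor genes Il6ra (0.18 ± 0.16) and Il6st (-0.13 ± 0.16). In the 18-library fit 16 of the 32 passed, all lower, and without control lung 3 the count was 24, all lower. Control lung 3 lay between the groups, with a median of -0.91 relative to control lungs 1 and 2, against -1.505 in H2.

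Most interferon-stimulated genes lay low in the H2 lungs, with 27 of 35 below all controls and 0 above. The list median was -0.95 (-0.72 without control lung 1). Ifi205, which with the related Ifi204 belongs to a DNA-sensing family, measured 57.1, 35.02 and 20.3 FPKM in control lungs and 8.58, 9.82 and 8.98 FPKM in H2 lungs (-1.81 ± 0.33, adjusted p = 0.00629, limma, with all 18 libraries). The nucleic acid sensor Zbp1 measured 135, 85.03 and 61.2 FPKM in control lungs and 25.2, 17.4 and 33.9 FPKM in H2 lungs (-1.81 ± 0.33, 0.0351). The antiviral gene Ifit3 measured 279, 136 and 88.8 FPKM in control lungs and 43.9, 29.3 and 50.2 FPKM in H2 lungs (-1.87 ± 0.42), and its near-identical copy Ifit3b differed by -1.89 ± 0.39. In these genes all 3 controls exceeded every H2 library. Irf7, the factor that amplifies interferon production, measured 178, 90.6 and 61.03 FPKM in control lungs and 29.1, 15.3 and 37.8 FPKM in H2 lungs (-1.91 ± 0.45, 0.0159). The ubiquitin-like Isg15 measured 330.3, 115 and 110.4 FPKM in control lungs and 39.9, 21.2 and 65.6 FPKM in H2 lungs (-2.05 ± 0.54). Control lung 1 was the highest library in both, and H2 lung 2 the lowest. Control lung 3 lay between the groups, its median being -0.51 relative to control lungs 1 and 2, against -1.14 in H2. In the fit of 18 libraries 10 genes passed and without control lung 3 the count was 17, all lower.

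Genes induced by interferon-gamma had 21 of 30 below all controls and 0 above, with a median of -0.87. The immunity-related GTPase Iigp1 measured 140.5, 159 and 54.2 FPKM in control lungs and 21.01, 15.1 and 33.1 FPKM in H2 lungs (-2.23 ± 0.45, adjusted p = 0.0127 with all 18 libraries). The guanylate-binding protein Gbp5 measured 39.2, 24.2 and 11.9 FPKM in control lungs and 5.82, 5.299 and 6.99 FPKM in H2 lungs (-1.75 ± 0.38, 0.00629). Nlrc5, the activator of MHC class I genes, was tight within groups at 5.97, 5.14 and 5.696 FPKM in control lungs and 2.88, 2.39 and 3.31 FPKM in H2 lungs (-0.78 ± 0.13, 0.0173). Cd274, which encodes PD-L1, measured 53.4, 33.6 and 15.1 FPKM in control lungs and 8.12, 4.83 and 9.76 FPKM in H2 lungs (-1.91 ± 0.45, 0.0163). The class I genes H2-K1 (-0.06 ± 0.12) and B2m (-0.10 ± 0.17) overlapped. In this list control lung 3 lay nearer the controls, at -0.24 relative to control lungs 1 and 2 against -1.02 in H2, and H2 lung 3 was the highest H2 library for each of the 4 genes just given. With all 18 libraries 7 of the 30 genes passed and without control lung 3 the count was 14, all lower.

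Interferon-activated factors bind a known element in promoters. The run GAAA, any 2 bases and again GAAA, the core of the interferon-stimulated response element, was searched on both strands of 300 bases around each gene start (RefSeq, GRCm38.p6). It occurs in 3.99% of 27025 promoters and 3.89% of those of tested genes, and in 14 of 24 interferon response genes with a promoter in the table (58.3%) and 11 of 21 genes of the interferon-gamma list (52.4%). The lists were made of genes known for this control, so the share describes the list and not the lung. The promoter stretches of Ifi205 and Ifit3, which have small p among the genes with a match, are shown as examples beside their values. They are written in gene direction with the element in capitals (TTTC, any 2 bases and TTTC where it lies on the other strand). The Ifi205 stretch is chr1:174031840-174031929 (minus strand) and the Ifit3 stretch chr19:34583367-34583456 (plus strand). The stretch of Ifit3b at chr19:34607763-34607852 has the same letters as that of Ifit3.
Ifi205: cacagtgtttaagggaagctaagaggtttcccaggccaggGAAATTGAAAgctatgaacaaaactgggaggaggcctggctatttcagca
Ifit3: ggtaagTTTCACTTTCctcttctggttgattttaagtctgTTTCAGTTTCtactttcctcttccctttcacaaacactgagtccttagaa

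Mitosis genes lay low in the H2 lungs. Of 42 mitosis genes 32 passed the filter on low values, and of these 25 lay below all controls and 0 above, with a median of -0.73. Ccna2, the cyclin of S phase and early mitosis, measured 6.902, 7.11 and 5.76 FPKM in control lungs and 3.499, 2.95 and 3.15 FPKM in H2 lungs (-0.85 ± 0.12, adjusted p = 0.172, limma, and 0.0117 with all 18 libraries). The mitotic cyclin Ccnb2 measured 6.48, 6.68 and 4.57 FPKM in control lungs and 2.11, 2.38 and 2.42 FPKM in H2 lungs (-1.05 ± 0.15, 0.00709). Ube2c, which tags mitotic cyclins for destruction, measured 8.204, 9.91 and 6.98 FPKM in control lungs and 3.897, 2.46 and 2.76 FPKM in H2 lungs (-1.22 ± 0.18, 0.00611). In these 3 genes every control lay above every H2 library, with control lung 3 the lowest control. Birc5, which encodes survivin, measured 12.8, 12.96 and 8.56 FPKM in control lungs and 4.22, 1.601 and 3.25 FPKM in H2 lungs (-1.66 ± 0.28, 0.00608). The proliferation marker Mki67 measured 5.73, 5.501 and 3.23 FPKM in control lungs and 1.95, 1.69 and 1.87 FPKM in H2 lungs (-1.01 ± 0.20, 0.00608). The levels of these genes were low in both groups, control lung 3 was again the lowest control, and no H2 library reached it. The topoisomerase Top2a measured 7.296, 9.197 and 4.03 FPKM in control lungs and 2.71, 1.89 and 2.89 FPKM in H2 lungs (-1.12 ± 0.27). The mitotic kinases Cdk1 (-0.81 ± 0.25), Aurkb (-0.85 ± 0.15) and Plk1 (-0.74 ± 0.21) lay below all controls. In the 18-library fit 21 of the 32 passed, all lower, and without control lung 3 the count was 28, all lower. Control lung 3 lay between, with a median of -0.39 relative to control lungs 1 and 2, against -0.88 in H2. The kinesin Kif23 (-0.08 ± 0.14) and Anln (-0.14 ± 0.22), both genes of cytokinesis, overlapped. Cenpm, a kinetochore gene outside the list, was among the 12 lower genes with the smallest p (2.98, 4.19 and 2.91 FPKM in control lungs and 0.922, 0.923 and 1.002 FPKM in H2 lungs, -1.15 ± 0.15).

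**Figure D3:**
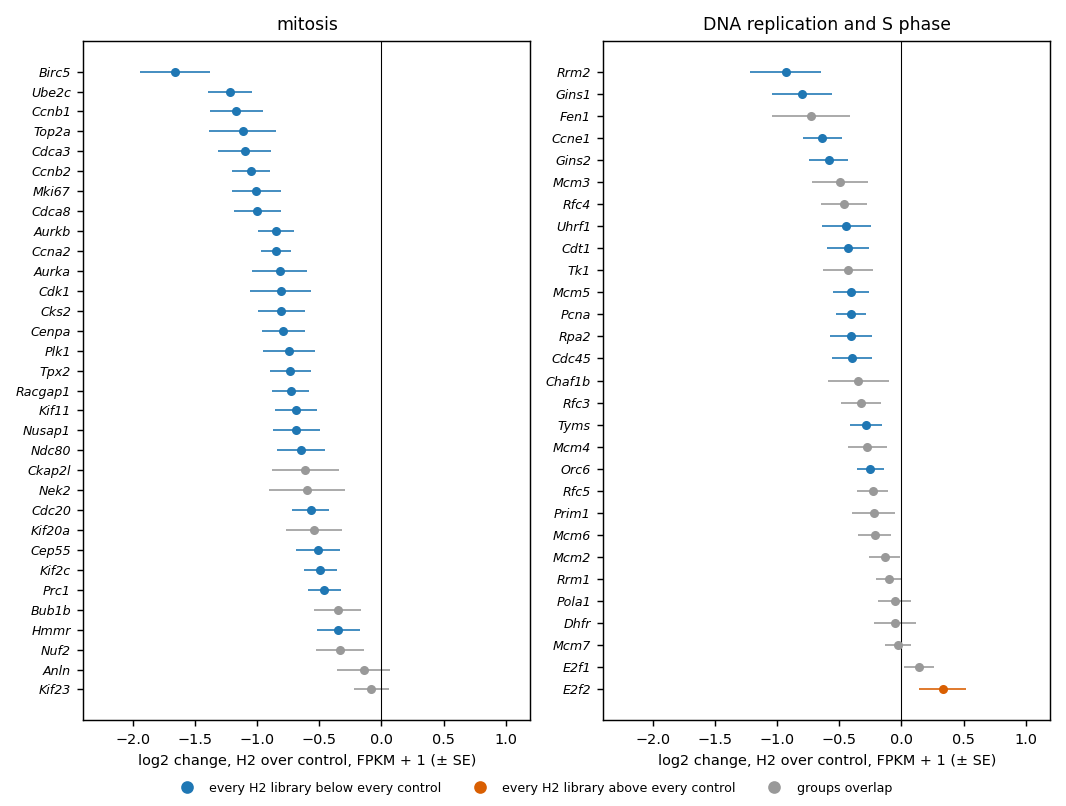
Each point is the log2 change of 1 gene, H2 over control on FPKM + 1, with its SE (n = 3 per group), for 32 mitosis genes and 29 genes of DNA replication. Blue marks genes with every H2 library below every control, orange the reverse and grey genes whose groups overlap. Mitosis genes reach from -1.66 for Birc5 to -0.08 for Kif23, and replication genes from -0.93 for Rrm2 to 0.33 for E2f2.

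Of 40 DNA replication genes 29 passed the filter, and 12 of them lay below all controls and 1 above, with a median of -0.35. Whether mitosis and replication genes differ was not tested. The cyclin of S phase entry Ccne1 measured 1.65, 1.75 and 1.15 FPKM in control lungs and 0.562, 0.732 and 0.537 FPKM in H2 lungs (-0.64 ± 0.16). The ribonucleotide reductase Rrm2 measured 6.9, 4.94 and 2.82 FPKM in control lungs and 2.73, 1.58 and 1.695 FPKM in H2 lungs (-0.93 ± 0.29). The sliding clamp Pcna measured 117, 121 and 99.4 FPKM in control lungs and 86.5, 77.1 and 89.5 FPKM in H2 lungs (-0.41 ± 0.12). In each of them the groups did not overlap. The helicase subunits Mcm2 (-0.14 ± 0.13) and Mcm7 (-0.03 ± 0.10) overlapped. Only Gins2 passed with all 18 libraries (4.94, 4.78 and 3.85 FPKM in control lungs and 3.395, 2.28 and 2.403 FPKM in H2 lungs, -0.59 ± 0.16, adjusted p = 0.0453), and 10 genes did without control lung 3. Of 29 cyclin, inhibitor and growth-arrest genes 4 lay above and 4 below all controls, with a median of -0.04. These shares, 13.8% each, were near the 14.1% and 15.9% of all tested genes. The inhibitor Cdkn1c (p57) measured 9.51, 13.3 and 27.8 FPKM in control lungs and 44.99, 37.9 and 39.97 FPKM in H2 lungs (1.36 ± 0.35, 0.0283 with all 18 libraries). Cdkn2d (p19) measured 65.3, 70.4 and 41.3 FPKM in control lungs and 30.98, 35.98 and 29.9 FPKM in H2 lungs (-0.82 ± 0.21, 0.0324). The growth regulator Myc measured 22.7, 13.9 and 5.59 FPKM in control lungs and 3.95, 4.72 and 4.02 FPKM in H2 lungs (-1.35 ± 0.43). Both lay below all controls. The G1 cyclin Ccnd1 lay above all controls (0.32 ± 0.17), and the p53 target Cdkn1a overlapped (-0.31 ± 0.17).

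Late cell cycle genes are held off in resting cells through a promoter element, the cell cycle genes homology region. Its core letters TTTGAA were found on either strand in 27 of 36 mitosis promoters (75%) and in 5 of 32 replication promoters (15.6%), against 20.2% of all 27025 promoters and 13.9% of those of tested genes. Of the 36 mitosis promoters 2 held the interferon element. A match describes the letters in the window and is not a site. The mitosis list was made of genes known for this control. The stretches of 3 genes with small p among those with a match are shown in gene direction with the element in capitals (TTCAAA on the other strand): Ccnb2 at chr9:70421535-70421592 (minus strand), Ube2c at chr2:164769858-164769947 (plus strand) and Cdca8 at chr4:124936898-124936946 (minus strand).
Ccnb2: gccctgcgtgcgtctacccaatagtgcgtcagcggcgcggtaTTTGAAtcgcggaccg
Ube2c: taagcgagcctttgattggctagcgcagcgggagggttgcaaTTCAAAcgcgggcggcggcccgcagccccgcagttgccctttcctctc
Cdca8: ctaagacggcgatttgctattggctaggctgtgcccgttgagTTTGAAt

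Oxygen and metabolic stress genes had a median of -0.48 (-0.33 without control lung 1), with 11 of 30 below all controls and 0 above. Lactate dehydrogenase (Ldha) measured 444, 355 and 294 FPKM in control lungs and 218, 219 and 207 FPKM in H2 lungs (-0.74 ± 0.16, adjusted p = 0.0389 with all 18 libraries). Heme oxygenase (Hmox1), the heme-degrading enzyme, measured 218, 108 and 71.5 FPKM in control lungs and 43.8, 38.9 and 39.4 FPKM in H2 lungs (-1.53 ± 0.37), with adjusted p = 0.0525 with all 18 libraries, above the threshold. The NRF2 target Srxn1, which repairs oxidised peroxiredoxins, measured 42.9, 38.3 and 16.9 FPKM in control lungs and 11.6, 15.4 and 12.03 FPKM in H2 lungs (-1.18 ± 0.34). Txnrd1, the thioredoxin reductase, measured 104, 78.5 and 31.8 FPKM in control lungs and 24.8, 30.9 and 27.6 FPKM in H2 lungs (-1.18 ± 0.40). Both passed with all 18 libraries (0.0249 and 0.0253). Hif1a was at 95.5, 48.4 and 20.7 FPKM in control lungs and 18.8, 20.7 and 20.8 FPKM in H2 lungs and overlapped, as did catalase (Cat, 0.45 ± 0.19) and Sod1 (0.12 ± 0.18). The inducible nitric oxide synthase Nos2 was low in all libraries (2.58, 1.25 and 2.38 FPKM in control lungs and 2.34, 2.73 and 3.74 FPKM in H2 lungs) and overlapped. Among 25 glucocorticoid and circadian genes 2 lay above and 4 below all controls, with a median of -0.04 (0.03 without control lung 1). Those shares were 8% and 16%, against 14.1% and 15.9% of all tested genes. The glucocorticoid target Fkbp5 measured 76.4, 85.6 and 61.7 FPKM in control lungs and 39.9, 52.4 and 47.3 FPKM in H2 lungs (-0.67 ± 0.16). Another such target, Tsc22d3, measured 179, 190.5 and 278 FPKM in control lungs and 275, 250.3 and 314 FPKM in H2 lungs and overlapped, and so did the clock genes Per1 (-0.04 ± 0.16) and Arntl (0.14 ± 0.14).

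Heat shock and immediate early genes varied within the groups. Of 26 chaperone genes 6 lay below and 1 above all controls, with a median of -0.0094. Those shares are 23.1% and 3.85%, against 15.9% and 14.1% of all tested genes. The chaperone gene Hsph1 was at 15.7, 15.7 and 67.1 FPKM in control lungs and 33.8, 29.8 and 50.2 FPKM in H2 lungs. Hsp90aa1 was at 178, 187 and 428 FPKM in control lungs and 324, 243 and 357 FPKM in H2 lungs. Control lung 3 was the highest of the 6 libraries in both. Cryab, a small heat shock protein and the 1 gene above all controls, was at 94.8, 111 and 209.8 FPKM in control lungs and 214, 214 and 212 FPKM in H2 lungs, with control lung 3 next to the H2 level. The median of the list in control lung 3 was 0.62 above control lungs 1 and 2, against 0.20 in H2. Of 21 immediate early genes, which answer handling and ischemia within minutes, 4 lay below and 0 above, with a median of -0.23. Fos was at 51.98, 31.9 and 64.7 FPKM in control lungs and 141, 91.8 and 18.5 FPKM in H2 lungs. Egr1 was at 88.3, 26.6 and 31.1 FPKM in control lungs and 63.9, 47.5 and 6.04 FPKM in H2 lungs. In both genes H2 lung 3 was the lowest of the 6 libraries and H2 lungs 1 and 2 lay above control lung 2.

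**Figure D4:**
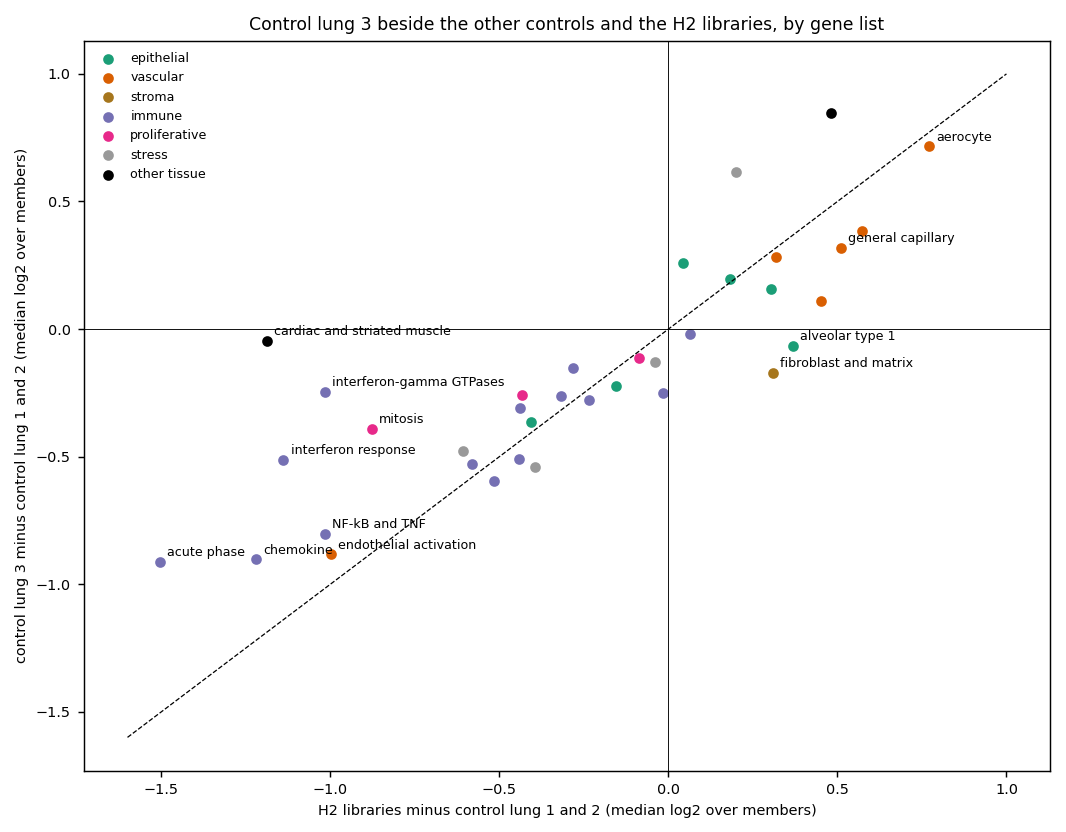
Each point is a gene list of at least 10 tested members. The x axis is the median log2 difference between the H2 libraries and control lungs 1 and 2, the y axis that between control lung 3 and control lungs 1 and 2, and the dashed line marks equality. Lists near the line, such as aerocytes (0.77 and 0.72) and endothelial activation (-0.997 and -0.88), have control lung 3 at the H2 level. Lists near the horizontal axis, such as cardiac muscle (-1.19 and -0.05) and alveolar type 1 (0.37 and -0.07), have it at the level of the other controls. Both axes share control lungs 1 and 2.

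The position of control lung 3 differed between lists. Aerocyte, endothelial activation, NF-kB (-0.80 in control lung 3 and -1.02 in H2 relative to control lungs 1 and 2), cytokine (-0.59 and -0.51) and chemokine genes (-0.90 and -1.22) had it near H2. Type 1, fibroblast, interferon-gamma and cardiac genes had it near the controls. For mitosis, interferon response and acute-phase genes it lay between.

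The 12 higher and 12 lower genes with the smallest p, predicted and small RNA genes left out, had adjusted p = 0.167 to 0.172 in limma. Gap43, a protein of growing nerve endings, measured 0.718, 2.36 and 1.902 FPKM in control lungs and 7.43, 6.92 and 8.104 FPKM in H2 lungs (1.73 ± 0.25). Cc2d2a, a gene of the base of the cilium, measured 2.71, 3.001 and 2.96 FPKM in control lungs and 5.18, 5.699 and 5.58 FPKM in H2 lungs (0.74 ± 0.10). The protease inhibitor family gene Spink4 measured 0, 0.376 and 0.802 FPKM in control lungs and 2.83, 3.31 and 2.85 FPKM in H2 lungs (1.56 ± 0.23). In these 3 higher genes the H2 libraries lay close together, above all controls. The other higher genes without values so far were the glycosyltransferase Eogt (0.70 ± 0.11), Adam23 (0.78 ± 0.13), Fam13c (1.04 ± 0.17), Fam57a (0.88 ± 0.14) and Fam178b (0.81 ± 0.13). On the lower side cytochrome c (Cycs), the electron carrier of mitochondria, measured 50.5, 48.1 and 50.2 FPKM in control lungs and 31.99, 27.2 and 29.1 FPKM in H2 lungs (-0.74 ± 0.10). The lysolipid transporter Mfsd2a measured 5.57, 4.19 and 4.59 FPKM in control lungs and 1.59, 2.15 and 1.87 FPKM in H2 lungs (-1.01 ± 0.14). The calcium pump Atp2a2 measured 136, 131 and 129 FPKM in control lungs and 75.4, 66.1 and 84.3 FPKM in H2 lungs (-0.81 ± 0.12). Atp2a2 is abundant in heart muscle and belongs to the cardiac list. Both Atp2a2 and the summed level of that list were lowest in H2 lung 2, but Atp2a2 was highest among the H2 libraries in H2 lung 3 and the sum in H2 lung 1. In all of these genes no H2 library overlaps a control.

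The H2 change was also compared between organs, over 9209 genes expressed in liver, intestine and lung. In 6 genes (0.0652%) the lung change differed from the mean of the liver and intestine changes at an adjusted p under 0.05 (limma, all 18 libraries), 1 higher (0.0109%) and 5 lower (0.0543%). Values are given for 5 of them. At an unadjusted p under 0.05 there were 1143 genes. The median difference of all genes was -0.0394. Follistatin (Fst), which binds activins, was the gene with a higher change in the lung. It measured 3.204, 2.59 and 6.36 FPKM in control lungs and 19.1, 7.21 and 11.9 FPKM in H2 lungs. In the liver it measured 12.7, 4.49 and 7.95 FPKM in controls and 2.502, 1.48 and 1.61 FPKM in H2. The groups do not overlap in either organ and lie in opposite directions. Elovl6, which elongates fatty acids, measured 3.81, 2.75 and 2.35 FPKM in control lungs and 1.15, 1.03 and 0.971 FPKM in H2 lungs, against 17.7, 17.8 and 17.1 FPKM in control intestine and 25.9, 33.7 and 26.8 FPKM in H2 intestine. The mitotic gene Cks2 had log2 changes of -0.81 in the lung, 0.50 in the liver and 0.50 in the intestine. Saa2 had log2 changes of -2.75 in the lung, -0.33 in the intestine and 0.03 in the liver, which makes most of it and where it measured 70960.5 to 89620.8 FPKM. The pyrophosphatase Ppa1 had log2 changes of -0.93 in the lung, 0.18 in the liver and 0.45 in the intestine. Without control lung 3 the counts were 77 higher and 140 lower. Leaving out any 1 of the other 5 lung libraries left 0 to 3 genes, with 0 without H2 lung 3, so the size of this set rests on single libraries.

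**Figure D5:**
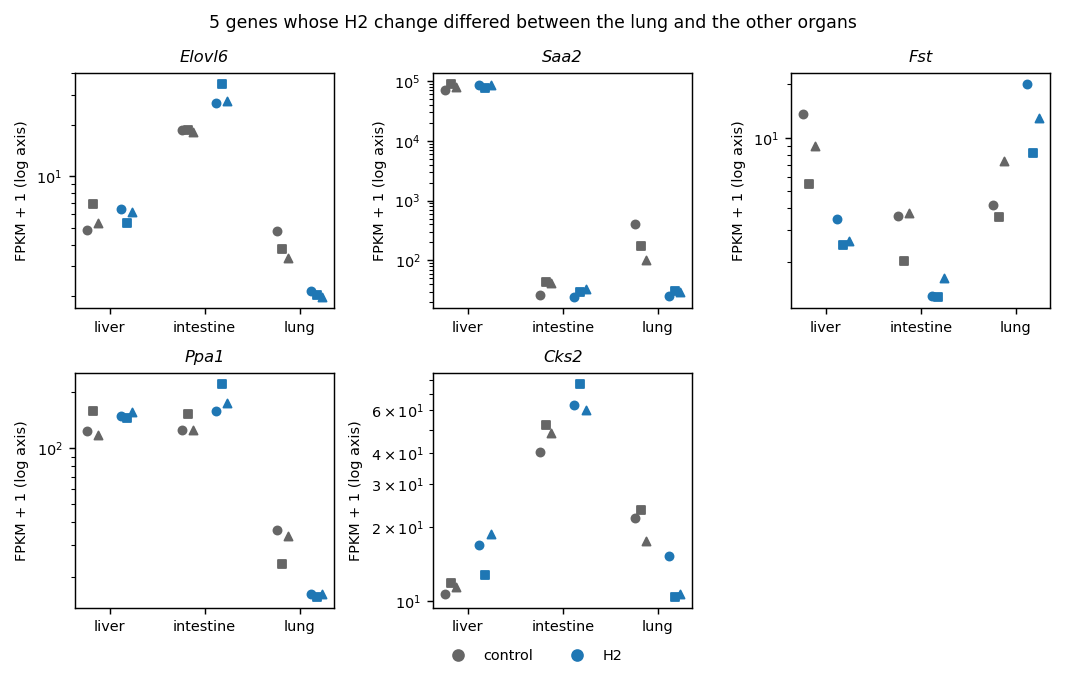
FPKM + 1 on a log axis of 5 genes whose H2 change differed between the lung and the mean of the other organs, in liver, intestine and lung. Grey is control, blue is H2, and circle, square and triangle are libraries 1, 2 and 3 of a group (n = 3). Fst is higher in H2 in the lung and lower in the liver and the intestine, and Elovl6 is lower in H2 in the lung and higher in the intestine.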

How the data were processed

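RNA of whole lungs was sequenced from poly(A)-selected, stranded libraries, 3 per group. Alignment with TopHat2 2.0.13 and Bowtie2 2.2.3, SAMtools 0.1.19 and Cufflinks 2.2.1 on mm10 are named in the submitters' processing notes, with no further settings. The values are FPKM per gene symbol as deposited by the authors, 1 table per library, for 24346 symbols. A second column in the table of control lung 2 repeats control lung 3 and was not used (1 column). No counts are given, so precision rests on the 3 libraries per group, and multi-copy genes may share reads.

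Genes with a mean of at least 1 FPKM over the 6 lung libraries (13424) were put on the log2(FPKM + 1) scale and tested in R 4.3.3 by limma 3.58.1 (empirical Bayes with an intensity trend), with Benjamini-Hochberg adjustment over all tested genes at 0.05. The main fit held the 6 lung libraries. The difference between organs was fitted over all 18 libraries and 9209 genes. A permutation test of 3 against 3 cannot go below p = 0.1. On simulated data for this comparison (13417 genes), 71% of 100 genes changed by log2 1 and 93% of 100 changed by log2 2 were called, with 10 unchanged genes called. The simulated noise was drawn independently for each gene and library, and only genes with a mean log2 value above 2 were changed. The real control lungs differed in many genes together, so these shares are not the power in the real libraries. Other settings were the pseudocount, the low-value filter, scaling, the variance model, array weights, the replicate block, each library left out and, chosen after seeing the data, a correction for transcript length (12944 genes, 96.4%).

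The libraries and the 39 gene lists (955 symbols, 833 tested, 35 in more than 1 list) were chosen with earlier results of these data known. Genes named by rule were the 12 in each direction with the smallest p whose groups do not overlap, leaving out predicted and small RNA genes, the first 2 and the 4 smallest-p members of each list, a panel of 12 inflammatory genes, and the 6 genes of the organ difference, of which 1 and some list members are in every fit and count but are not reported here. Other list members were named after their values were seen, to show levels that overlap or lie in the other direction. Same-numbered control and H2 lungs did not deviate together, and the numbers were not used as pairs. The description of H2 lungs 2 and 3 carries other numbers than their titles, which were used.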

Additional observations from a re-analysis of the deposited data

Results flagged for a closer look

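The change with hydrogen in the lung differed from the mean of the changes in liver and intestine in 6 genes, by the interaction term of limma over all 18 libraries (n = 3 per group), of which 5 are given. The difference was -1.32 for Elovl6 (adjusted p = 0.0268), with log2 changes of -0.94 in the lung, 0.09 in the liver and 0.68 in the intestine. It was -2.60 for Saa2 (adjusted p = 0.0325), which is a near-identical copy of Saa1. For Fst it was 2.80 (adjusted p = 0.0325), with 1.42 in the lung, -1.63 in the liver and -1.13 in the intestine. For Ppa1 it was -1.25 (adjusted p = 0.0375) and for Cks2 -1.31 (adjusted p = 0.0375). The lung values of these 5 genes do not overlap between the groups. The labels do not say which organs came from the same mouse.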

How the results depend on the processing

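In the lung comparison 1 gene passed under 9 of the settings tried. Counts that moved were 2 genes with no filter (1 lower), 0 with predicted and small RNA genes left out (0 higher), 818 with all 18 libraries in 1 fit (444 higher, 374 lower) and 7137 with array weights (3528 higher, 3609 lower), whose estimation stopped before it converged and gave control lung 2 a weight of 14.1. With the length correction and without control lung 3, 3336 passed (1606 higher, 1730 lower). Leaving out each library gave 1 to 3237 genes, with 1 to 1583 higher and 0 to 1654 lower. The highest counts were without control lung 3, and the others gave 1 to 4. Genes with no overlap numbered 1237 higher at a mean of at least 5 FPKM, and 2203 to 3891 higher and 2498 to 4032 lower with each library left out, where a smaller group overlaps less by construction.

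Replicate numbers did not pair the libraries (correlations of deviations -0.009, 0.116 and 0.005). With a replicate block 1 gene passed, and 2 in the organ difference (1 higher, 1 lower). The organ difference had 3 higher genes at a pseudocount of 5, 0 higher at a mean of at least 5 FPKM in each organ, and 0 to 217 genes with each library left out (0 to 77 higher, 0 to 140 lower).

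Of 211 genes named by rule, 195 kept their direction in all settings. Reversals were Sftpc (-0.155), Foxj1 (0.073), Marco (0.359), Siglecf (-0.07) and Ccnd2 (0.003) with array weights, Krt8 (0.032), Krt18 (0.026), Scgb1a1 (0.000), Foxj1 (0.101), Cldn3 (0.026) and Flt3 (-0.048) with quantile normalization, and Scgb1a1 (0.023), Pdgfrb (-0.001) and Flt3 (-0.004) with the length correction. Directions turned with some library left out for Sftpc (-0.194 to 0.151), Foxj1 (-0.157 to 0.057), Tubb4b (-0.056 to 0.153), Pdgfrb (-0.048 to 0.2), S100a8 (-0.132 to 0.29), S100a9 (-0.142 to 0.199), Marco (-0.38 to 0.215), Flt3 (-0.054 to 0.095), Cd79a (-0.381 to 0.035) and Fos (-0.192 to 1.239). The causes were not tested. The files give no counts, so the error of low values is seen only in the spread of 3 libraries.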
